A study of Mus musculus with 12 samples.

Results

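The genes described here are the cell cycle inhibitors of the CIP/KIP and INK4 families with the core of the p53 pathway, in cardiomyocytes and cultured nonmyocytes of the adult mouse heart. There are 10 of them, found by gene symbol among the 57683 genes of the polyadenylated RNA count table, by a rule that reads symbols and no measured value, although the set was proposed with earlier results of these data known: Cdkn1a, Cdkn1b, Cdkn1c, Cdkn2a, Cdkn2b, Cdkn2c, Cdkn2d, Trp53, Mdm2 and Ccng1. Hearts of 3 wild-type female FVB/NJ mice aged 12 weeks were perfused with collagenase and parted by gravity into muscle cells and smaller cells. The cardiomyocyte group (3 polyadenylated RNA and 3 small RNA libraries) is RNA taken from the muscle cells at once, without culture. The cultured nonmyocyte group (3 and 3 libraries) is RNA from the remaining cells after growth in dishes, a culture that the labels describe as consisting mainly of fibroblasts. The labels disagree on its age, with 2 passages in the protocol and P1 in the cell type field. Since only the nonmyocytes were grown in dishes, effects of cell type and of culture cannot be told apart.

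Cells divide when cyclin-dependent kinases, switched on by cyclins, inactivate the retinoblastoma proteins and free the E2F transcription factors. CIP/KIP proteins (p21, p27 and p57) bind cyclin-kinase complexes of several kinds, whereas INK4 proteins (p16, p15, p18 and p19) bind the kinases of the D-type cyclins. The transcription factor p53 is held low by the ubiquitin ligase Mdm2 and, once stabilised, switches on p21, Mdm2 and cyclin G genes. Adult cardiomyocytes are known to have largely left the cell cycle, and fibroblasts divide in culture and build up INK4 transcripts as they are passaged.

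The 3 cardiomyocyte libraries of polyadenylated RNA held 5956831 to 26851830 counts and the 3 nonmyocyte libraries 8126422 to 10792544. All 7 cardiomyocyte markers examined passed the test as higher in cardiomyocytes, with a summed level of 110349 to 147126 CPM (counts scaled to library size) against 768 to 1029 CPM in nonmyocytes. All 8 fibroblast markers passed as lower, with 344 to 510.3 CPM in cardiomyocytes against 22055 to 26680 CPM in nonmyocytes. Endothelial markers were also found in the cardiomyocyte fraction, where 6 of 7 tested passed as higher and the 8 listed summed to 433 to 877 CPM, against 87.0 to 97.5 CPM in nonmyocytes. The endothelial gene Pecam1 was counted at 0 to 0.155 CPM in cardiomyocytes and at 0 in every nonmyocyte library, but 81.1% of its exon bases are shared with other genes of the annotation, so its level is uncertain. Of 6 genes listed as mural (vessel wall) markers 3 passed as higher and the other 3 as lower. Those higher were Rgs5 at a log2 fold change of 5.09, Kcnj8 at 6.92 and Abcc9 at 7.30. Abcc9 changed as much as the cardiomyocyte markers (7.04 for Tnnt2 to 7.29 for Myl2), and which cells gave its RNA was not tested. Of 4 macrophage markers tested Csf1r and Cd68 passed as lower, and of 5 epicardial markers 3 passed as lower. In such bulk RNA, fewer cells of a type and less RNA per cell cannot be told apart. Which heart gave which numbered library is not stated in the labels, so the p-values measure the spread between libraries, which may be partly technical.

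Of the 10 genes, 2 rose in cardiomyocytes, 5 fell and 3 did not pass the test. The libraries of the fractions did not overlap for 8 of the 10. Of all 14734 genes tested, 31.6% were called higher, 32.1% lower and 63.7% in either direction, and 70.4% had no overlap, so the share of the 10 that passed was close to the background. The median log2 fold change of the 10 was -1.37, against -0.02 over all genes tested. Cdkn1b and Cdkn1c were the genes that rose, and Cdkn1a, Cdkn2a, Cdkn2b, Trp53 and Mdm2 were those that fell. Each log2 fold change below sets cardiomyocytes over nonmyocytes and carries its standard error, and a gene was called when its adjusted p was under 0.05.

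**Figure D1:**
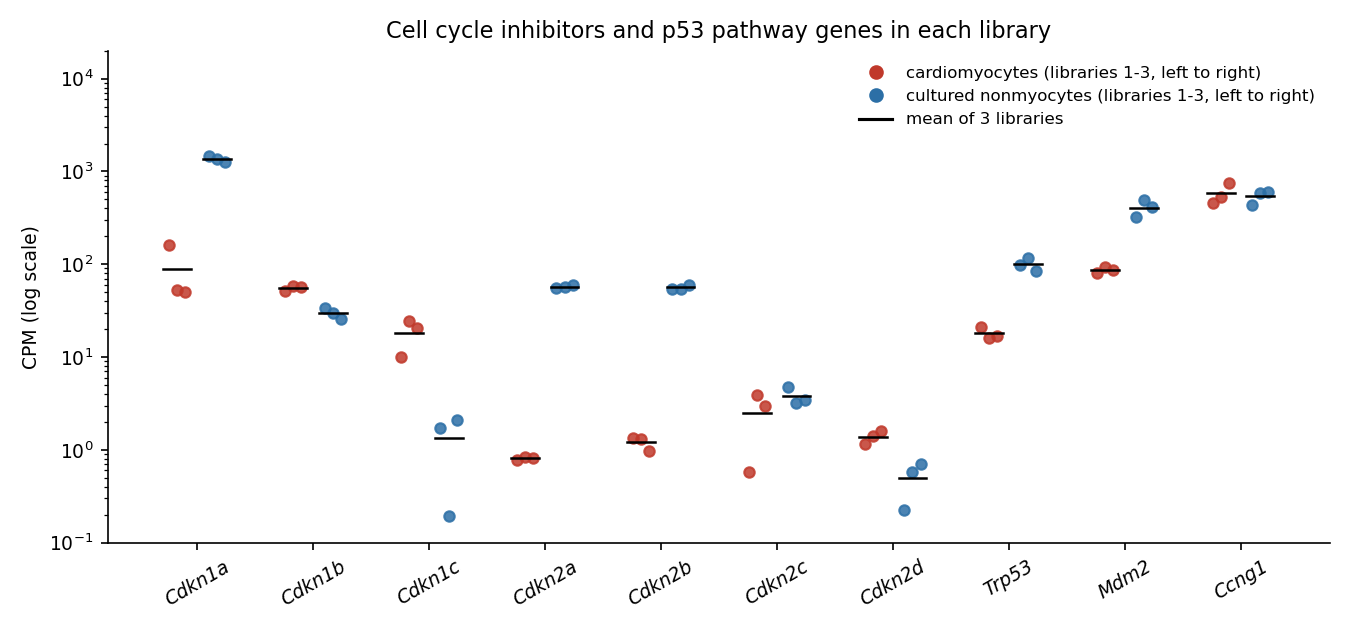
Level of each of the 10 genes in CPM on a log axis, with 1 point per library (cardiomyocytes on the left, cultured nonmyocytes on the right of each gene) and a bar at the mean of 3 libraries. Cdkn1a, Cdkn2a, Cdkn2b, Trp53 and Mdm2 lie lower in every cardiomyocyte library, Cdkn1b, Cdkn1c and Cdkn2d lie higher, and the fractions overlap for Cdkn2c and Ccng1.

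Among the CIP/KIP genes, Cdkn1a fell steeply in cardiomyocytes while Cdkn1b and Cdkn1c rose. Cdkn1a (p21, ENSMUSG00000023067, mm9 chr17:29227924-29237667, + strand), a broad kinase inhibitor and a classic p53 target, held 162.9, 52.6 and 49.6 CPM in cardiomyocyte libraries 1 to 3, against 1451, 1368 and 1277 CPM in the nonmyocyte libraries. All nonmyocyte libraries lay far above all cardiomyocyte libraries, and cardiomyocyte library 1 stood 3.29 times above the lowest of its group. The log2 fold change was -3.97 ± 0.41 with a 95% interval of -4.87 to -3.07 (edgeR quasi-likelihood test, Benjamini-Hochberg adjusted p = 3.72e-06). Without cardiomyocyte library 1 it was -4.71. Fibroblast markers were mixed in that library: 6 of 8 were at their lowest of the 3 cardiomyocyte libraries, while Dcn (41.3 CPM against 22.9 and 20.4 CPM in libraries 2 and 3) and Thy1 (8.72 against 6.42 and 5.96 CPM) were at their highest. Epicardial markers summed to 17.6 CPM there, against 9.43 and 10.4 CPM in libraries 2 and 3. Of these 5 markers 4 were at their highest in library 1, at low levels, and Wt1 was at its lowest (3.68 against 6.01 and 4.80 CPM). The part of other cells in the high Cdkn1a value was not tested. Of the exon bases of Cdkn1a 4.05% lie in a lncRNA gene, and adding that gene's counts left the fold change at -3.97.

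Cdkn1b (p27, ENSMUSG00000003031, mm9 chr6:134870419-134875531, + strand), which holds many resting cells out of division, held 51.9, 57.6 and 56.6 CPM in cardiomyocytes, against 34.1, 29.8 and 25.8 CPM in nonmyocytes. The groups did not overlap, and each varied little within itself. Its log2 fold change was 0.89 ± 0.18, with a 95% interval of 0.50 to 1.29 (edgeR quasi-likelihood test, adjusted p = 0.000808). With library totals in place of the trimmed mean scaling it was 0.21 (adjusted p = 0.281), under a scaling that moved the median of all genes from -0.02 to -0.70.

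Cdkn1c (p57, ENSMUSG00000037664, mm9 chr7:150644255-150646901, - strand), the imprinted member of the family, held 9.88, 24.3 and 20.7 CPM in cardiomyocytes, against 1.72, 0.193 and 2.10 CPM in nonmyocytes. The nonmyocyte levels rest on 23, 2 and 27 counts, and the lowest cardiomyocyte library still lay above the highest nonmyocyte library. Its log2 fold change was 3.74 ± 0.56, with a 95% interval of 2.54 to 4.95 (edgeR quasi-likelihood test, adjusted p = 6.24e-05). Cardiomyocyte library 1, where Cdkn1c was lowest, was also the lowest of its group for markers of several cell types. Endothelial markers summed to 433, 809 and 877 CPM in cardiomyocyte libraries 1 to 3, and cardiomyocyte markers to 110349, 147126 and 131898 CPM. Lowest in library 1 were 7 of 8 endothelial, all 6 listed mural, 6 of 7 cardiomyocyte and 6 of 8 fibroblast markers, but only 1 of 5 epicardial markers. The part of any cell type in the result was not tested.

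The INK4 genes split into a pair nearly silent in cardiomyocytes and a pair at low levels in both fractions. Cdkn2a (ENSMUSG00000044303, mm9 chr4:88920377-88940557, - strand) encodes p16 and, from another first exon, the Mdm2 inhibitor ARF. It held 0.775, 0.829 and 0.824 CPM in cardiomyocytes, against 55.8, 56.5 and 60.0 CPM in nonmyocytes. Its log2 fold change of -6.12 ± 0.25 (95% interval -6.67 to -5.57; edgeR quasi-likelihood test, adjusted p = 3.93e-10) was the largest of the 10 in size. Counts per gene do not separate its p16 and ARF transcripts.

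Cdkn2b (p15, ENSMUSG00000073802, mm9 chr4:88952198-88956850, - strand), an inhibitor of the same D-cyclin kinases, lies 11640 bases from Cdkn2a on the same strand. It held 1.36, 1.29 and 0.970 CPM in cardiomyocytes, against 54.6, 54.2 and 60.1 CPM in nonmyocytes, a log2 fold change of -5.58 ± 0.26 (95% interval -6.14 to -5.02; edgeR quasi-likelihood test, adjusted p = 9.51e-10). In both fractions the libraries of the neighbouring genes were close together, and the groups were far apart. Levels in cardiomyocytes were 1.41% of those in nonmyocytes for Cdkn2a and 2.14% for Cdkn2b. The 8 fibroblast markers spanned 1.51% (Col1a1) to 19.2% (Dcn) by the same measure, with Fn1 at 1.53%, Col1a2 at 1.96%, Pdgfra at 3.16%, Postn and Thy1 at 3.70% and Col3a1 at 7.86%. The part of nonmyocyte RNA in the cardiomyocyte counts of Cdkn2a and Cdkn2b was not tested.

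Cdkn2c (p18, ENSMUSG00000028551, mm9 chr4:109333481-109339794, - strand), known for its role in differentiating cells, held 0.581, 3.94 and 2.96 CPM in cardiomyocytes, against 4.70, 3.19 and 3.41 CPM in nonmyocytes. The groups overlapped, and cardiomyocyte library 1 was low with 3 counts. The log2 fold change was -0.50 ± 0.54 with an interval of -1.68 to 0.67 (edgeR quasi-likelihood test, adjusted p = 0.436). Its level is uncertain because 65.1% of its exon bases lie in lncRNA genes of the same table. Of these bases 1428 are shared with a gene on its own strand and 321 with one on the other strand. Those genes held 8 counts in cardiomyocytes and 4 in nonmyocytes, which does not settle how reads in the shared bases were counted.

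Cdkn2d (p19, ENSMUSG00000066860, mm9 chr9:21092910-21095471, - strand), the remaining INK4 gene, had 6, 27 and 33 counts in cardiomyocytes, or 1.16, 1.40 and 1.60 CPM, against 3, 6 and 9 counts, or 0.224, 0.580 and 0.698 CPM, in nonmyocytes. The groups did not overlap, but the log2 fold change of 1.49 ± 0.68 (95% interval 0.01 to 2.96) missed the threshold (edgeR quasi-likelihood test, adjusted p = 0.0723). It passed with limma voom (1.60, adjusted p = 0.0423) and with lncRNA genes left out (1.59, adjusted p = 0.0385).

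**Figure D2:**
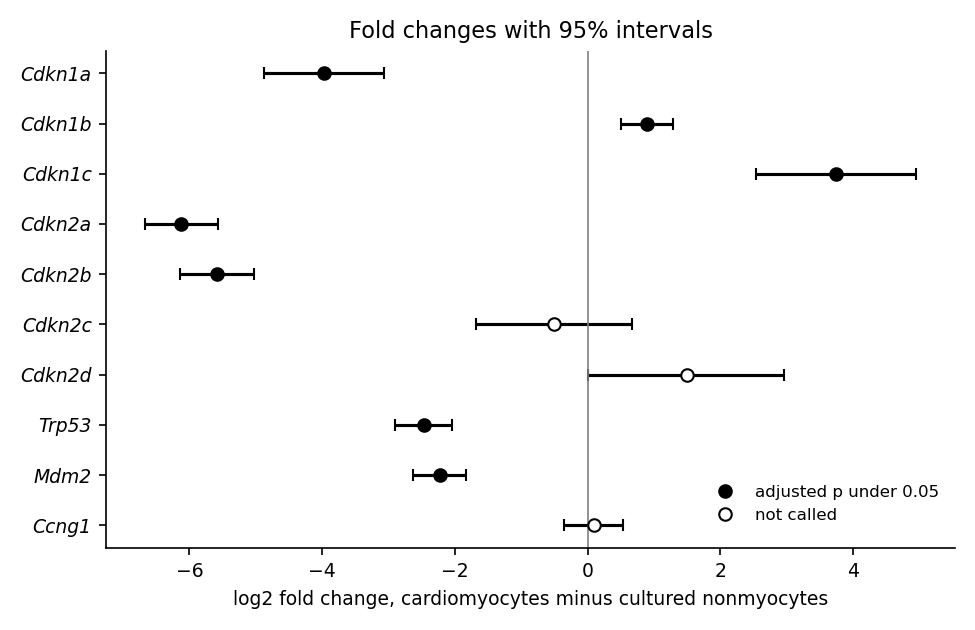
Log2 fold change, cardiomyocytes minus cultured nonmyocytes, of the 10 genes with 95% intervals from edgeR's quasi-likelihood fit to 3 libraries a group. Filled points passed an adjusted p of 0.05, and Cdkn2a at -6.12 and Cdkn1c at 3.74 mark the ends of the range.

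Trp53 and its ligase Mdm2 both fell, whereas Ccng1 did not pass the test. Trp53 (ENSMUSG00000059552, mm9 chr11:69393861-69405375, + strand), the gene of p53 itself, held 21.3, 16.2 and 16.8 CPM in cardiomyocytes, against 97.0, 116.2 and 84.98 CPM in nonmyocytes. The groups lay well apart. The log2 fold change was -2.47 ± 0.20, with an interval of -2.90 to -2.04 (edgeR quasi-likelihood test, adjusted p = 1.83e-07). A share of 28.7% of its exon bases lies in a lncRNA gene that held 0 counts in every library. How reads in shared bases were counted is not given, so these counts do not settle the level of Trp53.

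Mdm2 (ENSMUSG00000020184, mm9 chr10:117125944-117147814, - strand), which tags p53 for destruction and is switched on by it, held 79.6, 93.7 and 87.1 CPM in cardiomyocytes, against 324.8, 487 and 413.6 CPM in nonmyocytes. Its lowest nonmyocyte library was above every cardiomyocyte library, at a log2 fold change of -2.23 ± 0.18 (95% interval -2.63 to -1.83; edgeR quasi-likelihood test, adjusted p = 2.30e-07). With the counts of a lncRNA gene that shares 0.986% of its exon bases added, it was -2.25.

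Ccng1 (cyclin G1, ENSMUSG00000020326, mm9 chr11:40562054-40568813, - strand), a p53 target that recruits a phosphatase to Mdm2, held 461.5, 531 and 746 CPM in cardiomyocytes, against 435.5, 591 and 602 CPM in nonmyocytes. The groups overlapped, with the highest and the middle levels spread over both. Its log2 fold change was 0.10 ± 0.20, with an interval of -0.35 to 0.54 (edgeR quasi-likelihood test, adjusted p = 0.704). The direction was not stable: without cardiomyocyte library 3 it was -0.11, and with library totals -0.58 (adjusted p = 0.0181), where the median of all genes was -0.70.

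Cdkn1a, Mdm2 and Ccng1 are known p53 targets with unlike changes here, and their promoters are shown to set the p53 motif beside the values. Promoter windows from RefSeq (GRCm38, 250 bases before to 50 after a start) were found for 9 of the 10 genes, 12 windows in all. They were searched for the p53 decamer, the motif that in a pair forms a p53 response element and that reads the same on both strands. Of all 32851 windows in the table, 8.36% held at least 1 decamer and 0.347% held 2 or more. Cdkn1a has 2 windows: the upstream one, whose start lies 2790 bases before the other, held 2 decamers at positions -73 and -51, and the downstream one held none. Mdm2 held 1 at -186, Ccng1 1 at -185, Trp53 1 at -75 and Cdkn2d 1 at -102, and the windows of Cdkn1b, Cdkn2a, Cdkn2b and Cdkn2c held none. A match is a description of letters, not a site or a cause, and no match says only that the letters are not in these windows. Only exact matches were marked. In the Cdkn1a window the bases right after the decamer at -51 nearly match the motif but are not marked. Which stretches pair in a response element was not tested. The windows of Cdkn1a (upstream start, chr17:29090729-29091028, + strand), Mdm2 (chr10:117710709-117711008, - strand) and Ccng1 (chr11:40755237-40755536, - strand) follow, 5′ to 3′ along the gene's strand, with decamers in capitals.
Cdkn1a: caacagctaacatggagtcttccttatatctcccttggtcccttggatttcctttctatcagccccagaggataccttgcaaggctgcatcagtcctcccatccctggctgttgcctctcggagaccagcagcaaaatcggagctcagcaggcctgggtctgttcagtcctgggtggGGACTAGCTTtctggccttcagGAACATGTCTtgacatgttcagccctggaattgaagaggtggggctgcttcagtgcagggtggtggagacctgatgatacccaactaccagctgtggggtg
Mdm2: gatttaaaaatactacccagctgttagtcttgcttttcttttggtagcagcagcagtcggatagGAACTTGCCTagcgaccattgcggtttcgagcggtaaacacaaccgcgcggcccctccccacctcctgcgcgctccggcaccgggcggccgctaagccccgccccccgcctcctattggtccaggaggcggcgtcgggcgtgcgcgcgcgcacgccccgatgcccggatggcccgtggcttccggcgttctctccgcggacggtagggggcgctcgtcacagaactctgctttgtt
Ccng1: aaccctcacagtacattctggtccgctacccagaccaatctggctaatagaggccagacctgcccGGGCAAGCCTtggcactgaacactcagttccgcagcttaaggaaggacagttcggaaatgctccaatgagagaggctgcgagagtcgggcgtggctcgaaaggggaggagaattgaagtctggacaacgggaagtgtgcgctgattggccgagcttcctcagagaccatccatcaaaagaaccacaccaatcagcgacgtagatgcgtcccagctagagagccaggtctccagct
The windows of Mdm2, which fell at -2.23, and of Ccng1, at 0.10, hold 1 decamer each at nearly the same distance from the start. Bases of these genes outside the windows were not searched, and the part of p53 in these changes was not tested.

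Per length, the order of the genes differed between the fractions. On the RPKM scale (CPM per kilobase of exon), the cardiomyocyte order was headed by Ccng1 at 165.0 ± 42.3 RPKM (SD, n = 3), followed by Cdkn1a at 39.8 ± 29.1, Mdm2 at 17.1 ± 1.39, Cdkn1b at 12.2 ± 0.669, Cdkn1c at 9.94 ± 4.08 and Trp53 at 4.47 ± 0.693. The 4 INK4 genes came last in cardiomyocytes, with mean levels of 0.692 to 1.28 RPKM. In the nonmyocyte order Cdkn1a led at 614 ± 39.2 RPKM, followed by Ccng1 at 154.6 ± 26.5, Mdm2 at 80.6 ± 16.04, Cdkn2a at 49.1 ± 1.90, Cdkn2b at 43.3 ± 2.54 and Trp53 at 24.6 ± 3.89. Cdkn1b at 6.56 ± 0.917 RPKM, Cdkn2c at 1.40 ± 0.304, Cdkn1c at 0.726 ± 0.547 and Cdkn2d at 0.461 ± 0.227 closed the nonmyocyte list. Neighbours in the cardiomyocyte order whose libraries overlapped were Cdkn1b and Cdkn1c, Cdkn2d and Cdkn2c, and Cdkn2c and Cdkn2b. In nonmyocytes only Cdkn1c and Cdkn2d, among neighbours, overlapped.

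The make-up of both inhibitor families differed between the fractions. Cdkn1a made up 59.2 ± 19.2% of the summed CIP/KIP RPKM in cardiomyocytes (81.4, 47.8 and 48.5% in libraries 1 to 3) and 98.8 ± 0.103% in nonmyocytes (SD, n = 3 each). Cdkn1b held 21.8 ± 7.91% in cardiomyocytes and 1.05 ± 0.0798% in nonmyocytes, and Cdkn1c held 19.0 ± 11.4% and 0.118 ± 0.0918% in the same groups. The family sum was 61.9 ± 24.5 RPKM in cardiomyocytes and 621 ± 39.96 RPKM in nonmyocytes. Cdkn2a with Cdkn2b made up nearly the whole INK4 sum in nonmyocytes and well under that in cardiomyocytes. Cdkn2a held 18.5 ± 3.25% in cardiomyocytes and 52.1 ± 0.558% in nonmyocytes, Cdkn2b 25.2 ± 8.54% and 45.9 ± 0.539%, Cdkn2c 22.5 ± 13.5% and 1.49 ± 0.360%, and Cdkn2d 33.8 ± 4.24% and 0.485 ± 0.227%. The INK4 sum was 3.82 ± 0.753 RPKM in cardiomyocytes and 94.2 ± 4.46 RPKM in nonmyocytes. The cardiomyocyte shares rest on few counts: library 1 held 4 of Cdkn2a, 7 of Cdkn2b, 3 of Cdkn2c and 6 of Cdkn2d. Since 65.1% of the exon bases of Cdkn2c are shared with lncRNA genes, its share and its place in the RPKM order are uncertain. None of the shares of the 7 genes in their own family overlapped between the fractions, and the exact two-sided permutation test gave p = 0.10 for each, the smallest that 3 against 3 libraries can give.

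**Figure D3:**
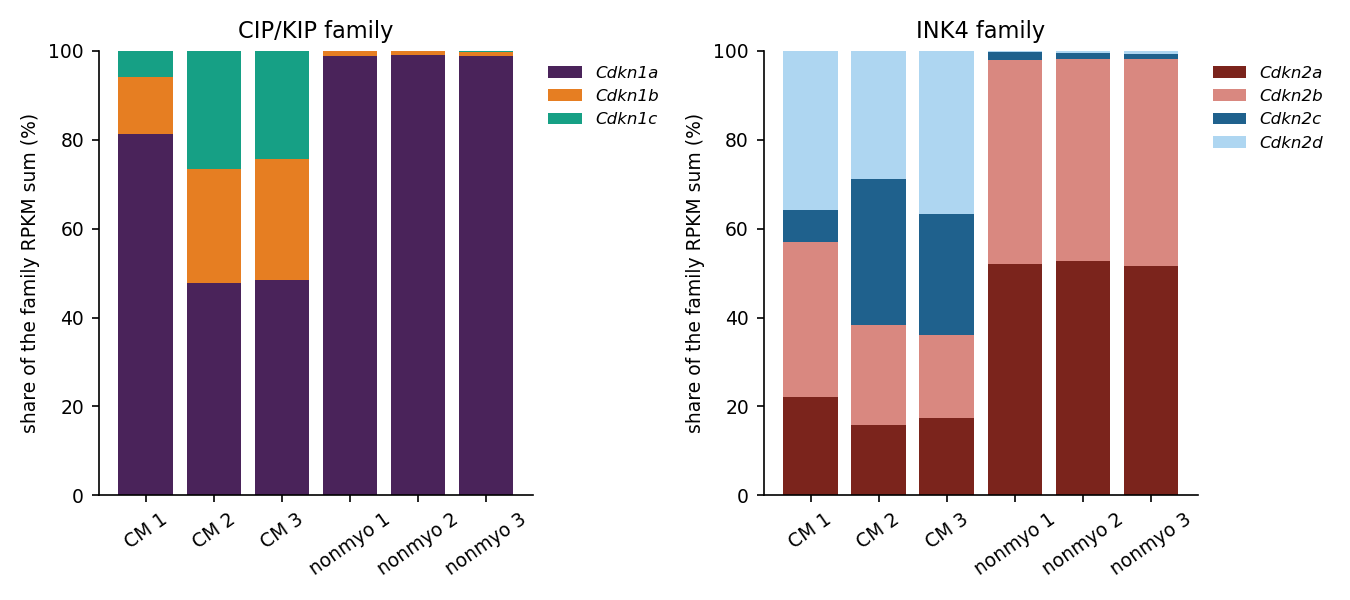
Share of each gene in the summed RPKM of the CIP/KIP family (left) and of the INK4 family (right), in percent, with 1 stacked bar per library and the cardiomyocyte libraries (CM) left of the cultured nonmyocyte libraries (nonmyo). Cdkn1a fills 98.7 to 98.9% of the CIP/KIP bar in nonmyocytes and 47.8 to 81.4% in cardiomyocytes.

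Several genes followed these levels closely over the 6 libraries, by Pearson's r of log2 CPM among genes with a mean of at least 10 CPM. The points share the libraries and the gap between fractions, so r values near 1 are common and are given as a description. Cdkn1a was most like Igf2bp2 (r = 0.9999), Hmox1 (r = 0.9997) and Nol10 (r = 0.9993). Hmox1, which encodes the haem-degrading enzyme haem oxygenase, held 84.1, 25.5 and 22.3 CPM in cardiomyocytes, against 1062, 949 and 981 CPM in nonmyocytes. Cardiomyocyte library 1 was thus the high library of its group for Hmox1 as it was for Cdkn1a. Cdkn2a was most like Sfxn3 (r = 0.9999), BC017643 and Tnpo2, Cdkn2b like Dzip1 (r = 0.9999), Il17ra and Ahnak2, Trp53 like Ctla2a (r = 0.9983), Dok1 and Cdca3, and Mdm2 like Snx7 (r = 0.9996), Isg15 and Ano3. Cdkn1b was most like Nudt3 (r = 0.9988) and Cdkn1c like Polr1b (r = 0.9984). For Ccng1, with no clear gap between the fractions, the closest gene was Neb (r = 0.9709).

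Targets of p53 were mostly lower in cardiomyocytes, with a few that rose. Of 23 targets tied to arrest, repair and metabolism other than Cdkn1a and Ccng1, 3 rose (13%), 16 fell (69.6%) and 4 did not pass. Of all genes tested, 31.6% were called higher and 32.1% lower. The median log2 fold change of the 23 was -2.38, against -0.02 over all genes tested. Sesn1, which encodes a stress-induced inhibitor of growth signalling, held 149.9 ± 8.96 CPM in cardiomyocytes and 4.69 ± 0.910 CPM in nonmyocytes (SD, n = 3 each), a log2 fold change of 4.99 ± 0.21 (adjusted p = 4.11e-10, edgeR quasi-likelihood test). Tigar, a brake on glycolysis listed under its clone name 9630033F20Rik, stood at 124.7 ± 5.10 and 14.4 ± 1.71 CPM in the same groups, at 3.12 ± 0.18. Btg2, an antiproliferative gene, was the third that rose, at 1.12 ± 0.22, a call lost with library totals (0.42, adjusted p = 0.0542). Without cardiomyocyte library 1, 5 rather than 3 of these genes rose. The steepest falls were Psrc1, at 1.62 ± 1.12 CPM in cardiomyocytes and 97.8 ± 7.65 CPM in nonmyocytes, and Ckap2 and Gtse1 at log2 fold changes of -5.47 ± 0.31 and -5.45 ± 0.34. Psrc1, Ckap2 and Gtse1 encode proteins that act on microtubules, and are also cell cycle genes in their own right.

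Of 16 targets tied to cell death, 15 could be tested: 2 rose (13.3%), 12 fell (80%) and Siva1 did not pass, at a median of -2.95. Over all genes tested the shares were 31.6% higher and 32.1% lower. Pmaip1 (Noxa), a BH3-only killer, held 0.436 ± 0.269 CPM in cardiomyocytes and 36.5 ± 8.26 CPM in nonmyocytes, at a log2 fold change of -6.17 ± 0.38. Bid, another BH3-only gene, fell at -4.96 ± 0.40 and Eda2r, a death receptor gene, at -4.46 ± 0.40. Bax, the pore former of mitochondria, held 29.0 ± 4.34 CPM in cardiomyocytes and 213.2 ± 21.7 CPM in nonmyocytes. Perp, a membrane protein gene, went the other way, with 248.7 ± 18.8 CPM in cardiomyocytes and 92.5 ± 12.0 CPM in nonmyocytes (edgeR quasi-likelihood test, adjusted p = 5.19e-06), and Trp53i11 rose at 0.65 ± 0.19. With library totals Trp53i11 stood at -0.03 (adjusted p = 0.887).

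Most regulators of p53 did not pass the test, whereas 63.7% of all genes tested were called. Of 21 listed, 17 were tested, Mdm2 among them: Hipk2 rose, Mdm2, Npm1 and Rpl23 fell, and 13 did not pass, at a median log2 fold change of 0.21. Hipk2, a kinase of p53, held 336.7 ± 25.8 CPM in cardiomyocytes and 97.7 ± 25.4 CPM in nonmyocytes (1.78 ± 0.20; edgeR quasi-likelihood test, adjusted p = 3.81e-06). Npm1, a nucleolar partner of ARF, stood at 43.2 ± 6.18 CPM in cardiomyocytes and 187.7 ± 8.23 CPM in nonmyocytes, and Rpl23, a ribosomal binder of Mdm2, at 12.3 ± 2.46 and 35.4 ± 9.86 CPM in the same groups. Both are uncertain, since they have many near-identical processed copies. The ribosomal genes Rpl5, which did not pass, and Rpl11, which was not tested, are uncertain too. Rpl5 was counted at 3.44 CPM in cardiomyocytes and 1.59 CPM in nonmyocytes, and Rpl11 at 0.271 and 0.988 CPM. How multiply mapped reads were counted is not given. The count of risers was small and depended on the setting: 3 rose without cardiomyocyte library 1 and 2 without nonmyocyte library 1, and with library totals 9 rather than 3 regulators fell.

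Genes that degrade or transcribe the inhibitors were called about as often as any gene: 9 of 29 (31%) were higher and 10 (34.5%) lower, against 31.6% and 32.1% of all genes tested, at a median of 0.21. The single genes named here are mostly those with the largest changes or the highest levels in the list, and their counts are no result about the group. Skp2 and Cks1b, which deliver p27 for destruction, fell: Skp2 held 0.839 ± 0.122 CPM in cardiomyocytes and 8.43 ± 2.36 CPM in nonmyocytes (edgeR quasi-likelihood test, adjusted p = 1.93e-05), and Cks1b 6.36 ± 0.748 and 48.3 ± 5.64 CPM in the same groups. Kpc1 (Rnf123), a subunit of another ligase for p27, went the other way. It held 164.1 ± 13.2 CPM in cardiomyocytes and 44.8 ± 3.94 CPM in nonmyocytes, at 1.88 ± 0.16. Foxo4, of the forkhead factors that switch on Cdkn1b, rose at 2.29 ± 0.18. Cbx7, a Polycomb protein known to silence the Cdkn2a locus, held 16.4 ± 1.502 CPM in cardiomyocytes and 2.39 ± 0.662 CPM in nonmyocytes (2.78 ± 0.33; edgeR quasi-likelihood test, adjusted p = 8.11e-06). The other Polycomb genes listed were mixed. Bmi1 rose at 1.12 ± 0.30, a call lost with library totals, while Ezh2 and Eed fell at -1.82 ± 0.36 and -1.22 ± 0.21. Suz12, Ring1 and Cbx8 did not pass. Hmga2, known to repress Cdkn2a in stem cells, stood at 0.152 ± 0.155 CPM in cardiomyocytes and 31.3 ± 1.496 CPM in nonmyocytes, the largest fall in this group of genes. Ets2, a factor that acts on the Cdkn2a promoter, rose at 2.14 ± 0.25. Ddb1, part of the ligase that degrades p21, fell at -1.86 ± 0.17, and its partner Cul4a, at 0.34 ± 0.19, did not pass.

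The targets of the inhibitors were lower in cardiomyocytes throughout, as far as they passed. Of 14 genes (cyclins, cyclin-dependent kinases and Pcna, the replication clamp that p21 binds), none rose, 11 fell and Cdk2, Ccng2 and Pcna did not pass, at a median log2 fold change of -2.59 (edgeR quasi-likelihood test). At an unadjusted p under 0.05, 12 were lower and 0 higher, and DESeq2 called 12 lower and 0 higher. The edgeR calls were 78.6% lower and 0% higher, against 32.1% and 31.6% of all genes tested. Ccnd2, which encodes a D-type cyclin, held 78.8 ± 23.9 CPM in cardiomyocytes and 896 ± 80.5 CPM in nonmyocytes, and the mitotic kinase gene Cdk1 2.63 ± 0.462 and 46.2 ± 4.07 CPM in the same groups. The mitotic cyclin gene Ccnb2 fell most, at -4.78 ± 0.52. In the retinoblastoma and E2F group 12 of 13 could be tested, and 2 rose (16.7%), 5 fell (41.7%) and 5 did not pass, at a median of -0.85. Over all genes tested 31.6% were called higher, 32.1% lower and 63.7% in either direction. E2f1, an activator of replication genes, fell at -4.47 ± 0.37, and Rbl1 (p107) at -2.01 ± 0.54. Rbl2 (p130), the family member typical of resting cells, rose at 1.26 ± 0.24, with 38.0 ± 7.14 CPM in cardiomyocytes and 16.005 ± 3.55 CPM in nonmyocytes (edgeR quasi-likelihood test, adjusted p = 0.000458). All 15 proliferation markers tested fell, against 32.1% of all genes tested, at a median of -3.21. The 16 listed summed to 27.3, 44.4 and 55.6 CPM in cardiomyocytes against 379, 383 and 394 CPM in nonmyocytes. Cardiomyocyte library 1, the high library for Cdkn1a, was the low library of its group for these markers.

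**Figure D4:**
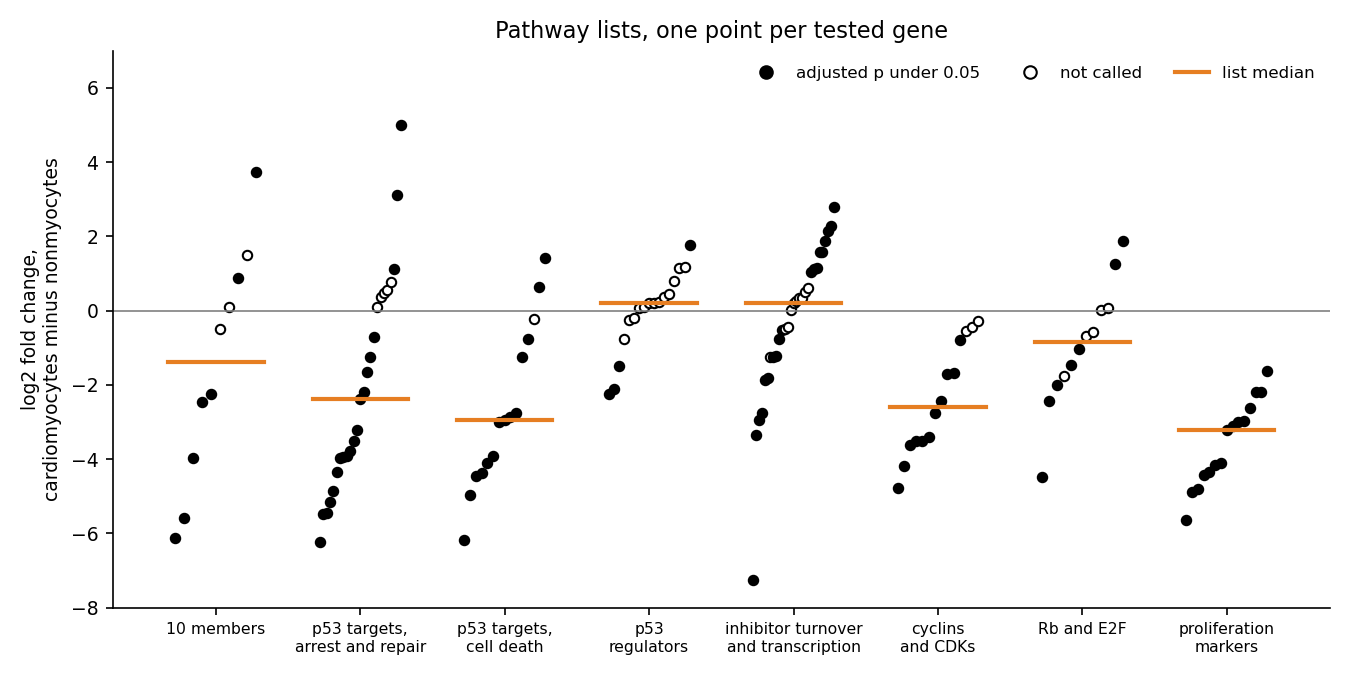
Log2 fold change, cardiomyocytes minus cultured nonmyocytes, of every tested gene in the 10-gene set and in 7 lists of related genes, with filled points for genes past an adjusted p of 0.05, open points for the others and a bar at the list median. Both p53 target lists have medians below -2 with a few genes above 0, and all 15 proliferation markers lie below 0.

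MicroRNAs tied to these genes were examined in the small RNA libraries, which held 412739 to 6311625 counts in cardiomyocytes and 83170 to 1255622 in nonmyocytes. Of 25 arms found 19 could be tested, and 8 were called lower in cardiomyocytes and none higher (edgeR quasi-likelihood test). The tally leaves out miR-504-5p, which had 129 counts in cardiomyocytes and 3 in nonmyocytes but did not pass the count filter. At an unadjusted p under 0.05 there were 9 lower and 0 higher, and DESeq2 called 9 lower and 0 higher. Over all 343 small RNAs tested, 33.8% were called lower, 19% higher and 52.8% in either direction. The clearest difference was in the miR-34 family, whose genes p53 is known to switch on. The sequences below, from RefSeq (GRCm38), are those of the arms the comparison turns on, with the seed (bases 2 to 8) in capitals. The 5p arms of miR-34a and miR-34b share a seed, as do the 3p arms of miR-34b and miR-34c and the 3p arms of miR-221 and miR-222.
miR-34a-5p: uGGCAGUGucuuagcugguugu
miR-34b-5p: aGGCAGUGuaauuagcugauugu
miR-34b-3p: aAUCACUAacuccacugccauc
miR-34c-3p: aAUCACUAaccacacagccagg
miR-221-3p: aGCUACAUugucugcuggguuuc
miR-222-3p: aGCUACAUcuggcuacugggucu
The miR-34b and miR-34c arms lie on chromosome 9 between 51103044 and 51103632 (- strand), the miR-34a arm on chromosome 4 and the miR-221 and miR-222 arms on chromosome X.

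The arms of miR-34b and miR-34c were nearly absent from cardiomyocytes. The most abundant, miR-34c-5p, had 4, 8 and 39 counts in cardiomyocytes, or 16.1, 4.404 and 12.1 CPM, against 7956, 2641 and 266 counts, or 3924, 2531 and 1805 CPM, in nonmyocytes. Set over nonmyocytes, the log2 difference was -8.09 ± 0.78 (edgeR quasi-likelihood test, adjusted p = 0.000522), and the groups lay far apart. miR-34b-3p had 1 count over the cardiomyocyte libraries and 1064 over the nonmyocyte libraries. miR-34c-3p had 0 and 328 counts in the same groups, at least 180.0-fold lower in cardiomyocytes when 3 counts over the group stand for its floor, and miR-34b-5p had 0 and 126, at least 69.2-fold lower. miR-34a-5p, from another chromosome, had 0, 59 and 171 counts (0, 32.5 and 52.9 CPM) in cardiomyocytes, against 136, 51 and 24 counts (67.1, 48.9 and 162.9 CPM) in nonmyocytes. The groups overlapped, and its log2 fold change of -1.55 ± 1.03 was not called (edgeR quasi-likelihood test, adjusted p = 0.245).

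Of the arms that share the seed known to target Cdkn1b and Cdkn1c, miR-222-3p held 852, 350.7 and 179.6 CPM in cardiomyocytes, against 2492, 2998 and 2165 CPM in nonmyocytes. Its log2 fold change was -2.48 ± 0.64 (adjusted p = 0.0152, edgeR quasi-likelihood test). It no longer passed when cardiomyocyte library 2 (adjusted p = 0.0721) or nonmyocyte library 1 (adjusted p = 0.136) was left out. miR-221-3p, with 257, 498 and 463 CPM in cardiomyocytes against 1026, 905 and 706 CPM in nonmyocytes, did not overlap between the groups and missed the threshold at -1.11 ± 0.47 (edgeR quasi-likelihood test, adjusted p = 0.0820). The 3′ UTRs of the 10 genes (longest per gene, GENCODE M21, GRCm38) were searched for ATGTAGC, the letters complementary to that seed, on the transcript strand. They occur once each in Cdkn1b (chr6:134924416-134924441, + strand), Cdkn1c (chr7:143458922-143458947, - strand) and Ccng1 (chr11:40749781-40749806, - strand), shown with the match in capitals.
Cdkn1b: ctctaaaagcattggATGTAGCattg
Cdkn1c: tgggacctttcgttcATGTAGCagga
Ccng1: ctgtgttgtttgcctATGTAGCagga
Of 3′ UTRs within 20% of the same length, 22.2% hold these letters at the length of Cdkn1b, 4.59% at that of Cdkn1c and 15.6% at that of Ccng1. Cdkn1b and Cdkn1c were the members that rose in cardiomyocytes, and Ccng1 did not pass the test. Whether miR-221 or miR-222 acts on these genes here was not tested.

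The miR-17 family, known to target Cdkn1a, had 6 arms tested and none called (edgeR quasi-likelihood test), with 0 at an unadjusted p under 0.05 and 0 called by DESeq2. miR-93-5p, its most abundant arm, held 229, 310.5 and 523 CPM in cardiomyocytes, against 414, 487 and 475 CPM in nonmyocytes, and the groups overlapped. With library totals its log2 fold change was -2.04 and passed, under a scaling that moved the median of all small RNAs to -1.90. Its seed match GCACTTT, in capitals, stands once in the 3′ UTR of Cdkn1a (chr17:29099814-29099839, + strand), which fell, and once in that of Ccng1 (chr11:40749397-40749422, - strand), which did not pass the test. Of 3′ UTRs of like length, 11.8% hold these letters for Cdkn1a and 19.1% for Ccng1. Whether the family acts on these genes here was not tested.
Cdkn1a: cctcagacctgaataGCACTTTggaa
Ccng1: caacatttcatgaatGCACTTTtaag
Among arms reported to target Trp53, miR-125a-5p held 1893, 4772 and 3640 CPM in cardiomyocytes, against 7703, 7861 and 12264 CPM in nonmyocytes (-1.43 ± 0.48; edgeR quasi-likelihood test, adjusted p = 0.0402), a call lost when any library was left out. miR-125b-2-5p, an arm with the same seed as miR-125a-5p, held 1258, 5902 and 4237 CPM in cardiomyocytes, against 7361, 4614 and 4065 CPM in nonmyocytes, and was not called (-0.49 ± 0.60; edgeR quasi-likelihood test, adjusted p = 0.524). The match of their shared seed, CTCAGGG, occurred 0 times in the 3′ UTR of Trp53. Among the 10 genes it stood only in that of Ccng1, and 21.8% of 3′ UTRs of like length hold it. Whether these arms act on Trp53 here was not tested. miR-504-5p had 4, 51 and 74 counts in cardiomyocytes, against 3, 0 and 0 counts in nonmyocytes. In CPM it held 16.1, 28.1 and 22.9 against 1.48, 0 and 0, so it lay higher in every cardiomyocyte library. It did not pass the count filter and was not tested.

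**Figure D5:**
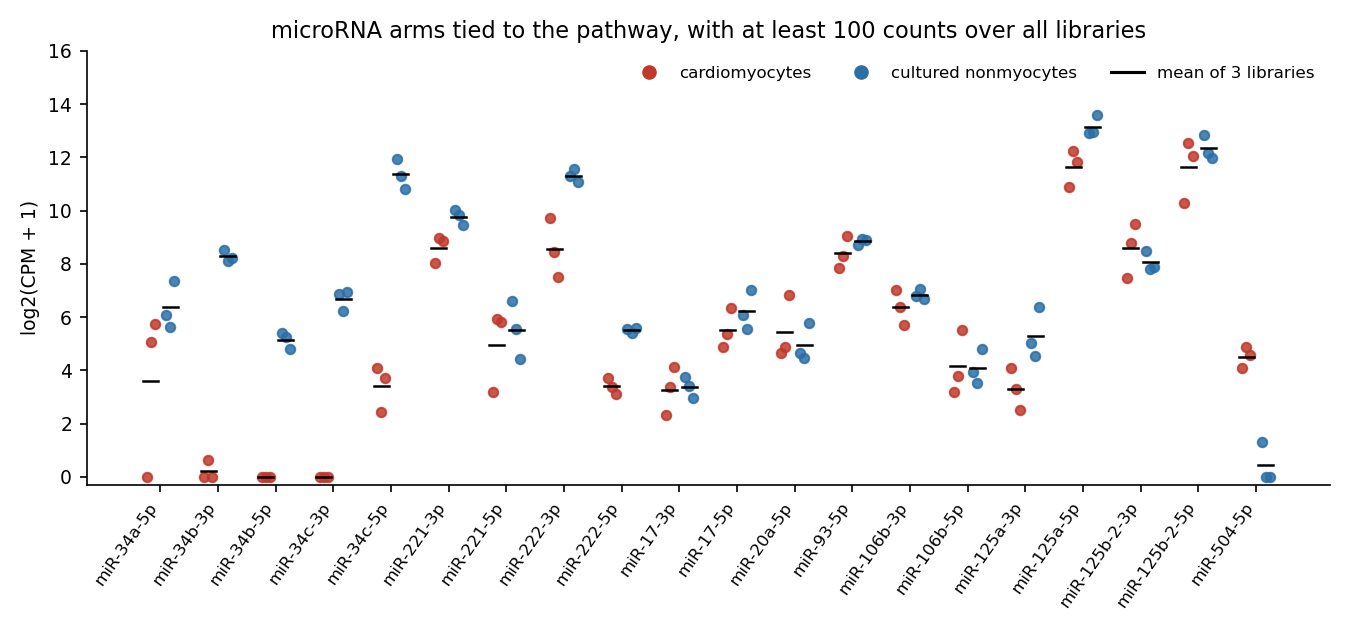
Level of microRNA arms tied to the pathway, as log2(CPM + 1), with 1 point per small RNA library (cardiomyocytes left, cultured nonmyocytes right of each arm) and a bar at the mean of 3 libraries; arms with at least 100 counts over all libraries are drawn. The miR-34b and miR-34c arms show the widest gaps between the fractions, and the miR-17 family arms overlap.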

How the data were processed

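Polyadenylated and small RNA were sequenced from cardiomyocytes and cultured nonmyocytes, 3 libraries of each kind per fraction. The authors deposited whole-number read counts per gene or microRNA arm, without normalization. Per the submitters' processing notes the tools were TopHat 1.3.0, Bowtie, HTSeq, edgeR and DESeq, and the build was mm9. How overlapping or multiply mapped reads were counted is not given in the sources used here. The Total row of the small RNA table was left out of library sizes and tests.

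From the deposited counts, genes passing filterByExpr (minimum count 10) were fitted with edgeR 4.0.16 (R 4.3.3; TMM scaling, robust quasi-likelihood test), without a library number term, and p-values were adjusted over all tested features (Benjamini-Hochberg; called under 0.05). Standard errors are the fold change over the root of F, and CPM uses TMM-scaled totals. RPKM divides CPM by the exon length of the deposited mm9 annotation. The polyadenylated RNA libraries held 5956831 to 26851830 counts; low counts such as those of Cdkn2d limit precision. Shares were compared with exact permutation tests. The self-test used simulated counts.

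The 10 genes were picked by symbol, and they and all lists were chosen with earlier results of these data known. Genes were named by size of change and level within each list, and some others were named beside them as related genes. Alternatives were DESeq2 1.42.0 (size factors, test), limma 3.58.1 voom, upper quartile scaling, library totals, no low-count filter, Ensembl genes only, the library number as a block, and each library left out. One, chosen after seeing the data, added the counts of overlapping lncRNA genes.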

Additional observations from a re-analysis of the deposited data

How the results depend on the processing

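Of the alternative fits of the 10 genes, 145 kept direction and side of the threshold. With library totals Ccng1 turned to -0.58, Cdkn1b lost its call, and 1 rather than 2 of the genes was called higher; the median of all genes was then -0.70 against -0.02, with 3177 genes higher and 7106 lower against 4657 and 4732. The same scaling gave 1 rather than 2 death targets higher, 9 rather than 3 p53 regulators lower, and turned miR-17-3p to -1.55. The count of arrest and repair targets called higher was 5 with Ensembl genes only and 3 to 5 when each library was left out. The count of regulators called higher was 1, against 2 with DESeq2 size factors, no low-count filter or limma voom, 3 with the DESeq2 test or Ensembl genes only, and 1 to 3 when each library was left out. The cause was not tested. With no length scaling the share differences (cardiomyocyte minus nonmyocyte) were 34.7 percentage points for Cdkn1b against 20.7, 34.9 for Cdkn2c against 21.002, and 24.2 for Cdkn2d against 33.3. Of the alternative fits of called microRNA arms 79 kept the call and 17 lost it; of those of arms not called, 8 gained a call, 17 changed direction without one and 1 (miR-17-3p) changed direction with one. The small RNA nonmyocyte library with 83170 counts limits precision.

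Same-numbered libraries had deviation correlations of 0.162, 0.0504 and 0.1 in polyadenylated RNA, not all over 0.1, and 0.0437, -0.0988 and 0.245 in small RNA; different numbers gave -0.16 to 0.0694 and -0.407 to 0.372. Cardiomyocyte library 2 of polyadenylated RNA correlated best with nonmyocyte library 3. The numbers were not used as pairs, and whether they mark a shared heart cannot be told from these values. With the replicate block 2 of the 10 genes were called higher and 5 lower, as without it, 3 regulators were called higher rather than 1, and 5198 of all genes were higher and 4934 lower.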
